A study of Mus musculus with 3 samples.

Results

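The 33 genes described here encode the transporters and enzymes that take glucose to pyruvate and lactate, the first enzyme of the pentose phosphate branch, and enzymes that carry pyruvate into and around the citric acid cycle. They were chosen by gene symbol, and all 33 were among the 17857 genes of the count table. All 33 also had at least 10 counts summed over the libraries, the requirement for testing, which 15490 genes met. The RNA came from cells sorted as Ly6c+, c-kit+ and CD11cNEG from lymph nodes draining B16F10 melanomas, a mouse skin tumour line, implanted on both sides in C57BL/6J mice. The mice were untreated and the tumours were at day 14. Nodes were pooled before the sort, and the number of mice in a pool is not stated. The 3 libraries form 1 group of repeat experiments, called replicates 1, 2 and 3, with no control population. The p-values below reflect the spread of these 3 samples alone, and that spread may be technical.

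Glycolysis splits glucose into pyruvate in the cytosol, and several of its steps can be run by alternative enzymes, called isoenzymes, from different genes. Pyruvate is then either reduced to lactate and exported or oxidised in mitochondria by the pyruvate dehydrogenase complex, which feeds the citric acid cycle. Resting lymphocytes rely mostly on mitochondrial oxidation, and activated lymphocytes and many myeloid cells raise glycolysis and lactate export, so the choice of isoenzyme is often read as a sign of cell type and state.

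The libraries held 9077195, 13885509 and 13861430 counts, and 3 counts, the most that a count of 0 allows, correspond to 0.317, 0.214 and 0.228 CPM, the counts of a gene scaled to a library total common to all libraries. The genes of the sort were read at 9.83, 5.35 and 5.92 CPM (Kit), 11.5, 121 and 41.2 CPM (Ly6c2), 19.1, 4.28 and 17.6 CPM (Ly6c1), and 26.95, 43.2 and 24.0 CPM (Itgax, the gene of the excluded CD11c) in replicates 1, 2 and 3. All 11 T cell markers lay above 1 CPM, with a summed level of 3792 to 4702 CPM, so the libraries hold RNA of several cell types. In bulk RNA of this kind, fewer cells of a type and less RNA per cell cannot be told apart. Replicate 1 stood apart in red cell, macrophage and proliferation genes. The 9 erythroid markers summed to 5063 CPM there against 74.6 and 359 CPM in replicates 2 and 3, the 8 macrophage markers to 995 against 96.4 and 225 CPM, and the 8 proliferation markers to 1287 against 149.7 and 260.0 CPM. The B cell, skeletal muscle, adipocyte, stromal and melanoma marker sums were also highest in replicate 1. That library had the fewest counts, yet 632 genes had no count in it, against 3788 and 2199 in replicates 2 and 3. The 7 NK cell markers were highest in replicate 2 (612 CPM, against 83.1 and 253) and the 7 neutrophil markers in replicate 3 (751 CPM, against 201 and 71.9).

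Because CPM grows with the length of a transcript, levels of different genes are compared as CPM per kilobase of the deposited gene length, given as mean ± SD over the 3 libraries (n = 3). The 33 levels formed a continuous run on this scale. Highest was Mdh2, mitochondrial malate dehydrogenase, with 98.4 ± 1.93 CPM per kilobase, followed by Pkm (86.0 ± 3.41), Ldha (82.1 ± 4.15) and Aldoa (79.2 ± 6.26). The lowest were Aldoc (0.967 ± 0.642), Pgam1 (1.07 ± 0.142), Pgk1 (2.85 ± 0.678), Hk2 (3.17 ± 0.709) and Gapdh (3.37 ± 1.02). Of these, Pgam1, Pgk1 and Gapdh encode steps of the main path of glycolysis. The median of the 33 genes was 18.0, 15.1 and 13.8 CPM per kilobase in replicates 1, 2 and 3, against 5.36, 5.37 and 5.21 over all genes tested.

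Each gene was tested against 2 fixed reference levels with edgeR's quasi-likelihood statistic, adjusted over all 15490 genes by Benjamini and Hochberg's method, with a threshold of 0.05. Above 1 CPM lay 31 of the 33 genes, beside 68.6% of all genes tested. Aldoc and Pgam1, at log2 0.71 and 0.97 relative to 1 CPM, were not separated from it (edgeR adjusted p = 0.5 and 0.195). Pgam1 passed with edgeR's own expression filter (0.0233). Against 20 CPM per kilobase, 10 of 33 lay above, beside 16.5% of all genes, 15 lay below, beside 64.3%, and 8 were on neither side of it by the test. With replicate 3 left out, 11 of 33 lay below, beside 5422 of the 14979 genes then fitted.

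**Figure D1:**
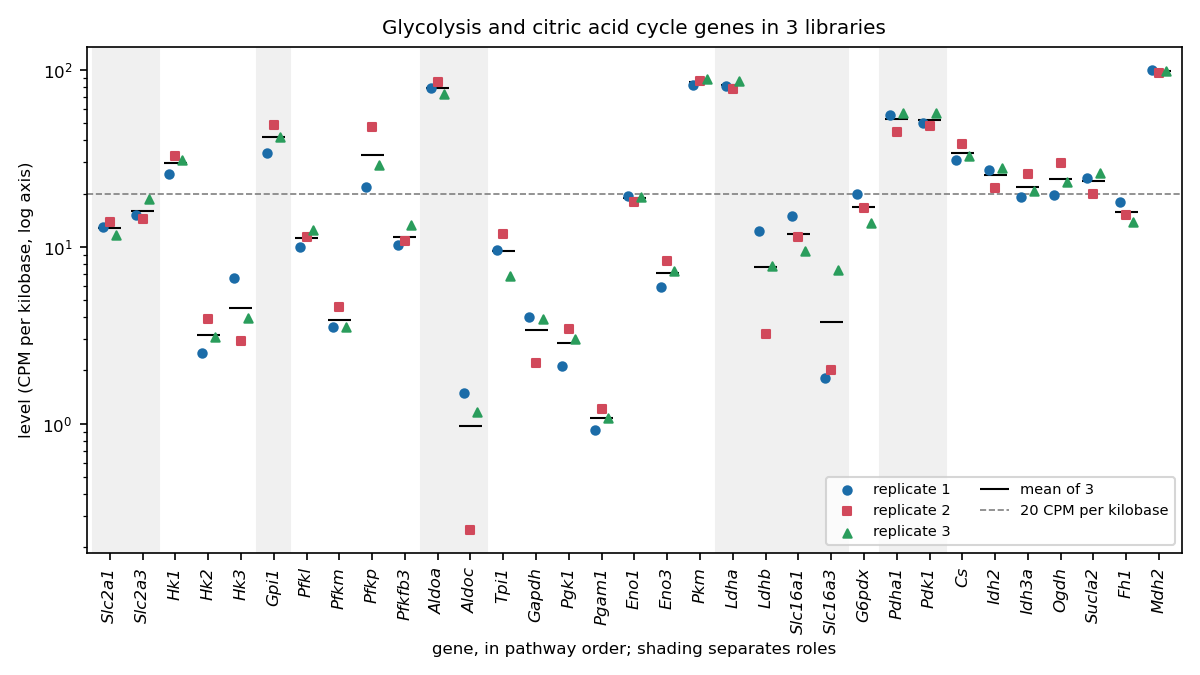
Level of each of the 33 genes (CPM per kilobase, log axis) in replicates 1, 2 and 3, with the mean as a bar and the reference of 20 CPM per kilobase as a dashed line. Genes stand in pathway order. Mdh2, Pkm, Ldha and Aldoa lie highest, and Aldoc, Pgam1 and Pgk1 lowest.

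The libraries were close to each other for most of these genes. The highest library exceeded the lowest by a median of 1.31-fold, beside 1.48-fold over the 10625 genes above 1 CPM, and by less than 1.5-fold for 22 of the 33 genes. Over those 10625 genes, 5498 stayed under 1.5-fold and 2238 passed 2-fold. Replicates 1, 2 and 3 were the highest library for 9, 14 and 10 of the 33 genes, a division like that over the genes above 1 CPM (2870, 4651 and 3104). Over all genes tested, low-count genes included, the shares were 45.2%, 32% and 22.8%. The range passed 2-fold for 5 of the 33 genes, Hk3, Pfkp, Aldoc, Ldhb and Slc16a3, each of which has a steadier isoenzyme or partner described below.

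Glucose enters through facilitative transporters. Slc2a1, which encodes GLUT1, the widely used transporter that rises in growing cells, was read at 12.9, 13.9 and 11.7 CPM per kilobase in replicates 1, 2 and 3. Slc2a3, which encodes GLUT3, a high-affinity transporter of neurons and leukocytes, was read at 15.1, 14.4 and 18.6 CPM per kilobase. The ranges of the genes did not overlap, but they came within 0.05 log2 units of each other in replicate 2. Slc2a1 was lower in each library, by -0.22, -0.05 and -0.67 on the log2 scale (mean -0.32 ± 0.32, exact permutation p = 0.25, two-sided). That p is the smallest that 3 libraries allow, and it became 0.275 after adjustment over the 11 pairs compared. Slc2a1 lay below 20 CPM per kilobase (edgeR adjusted p = 0.00955), a call lost without replicate 3 (0.123) and with totals that leave out mitochondrial genes and Malat1 (0.0511). Slc2a3 was not separated from it (0.0848).

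The first enzyme, hexokinase, traps glucose by phosphorylation. Hk1, the form of most resting tissues that sits on mitochondria, was read at 25.9, 32.5 and 30.9 CPM per kilobase. Hk2, the form induced in growing and insulin-responsive cells, was read at 2.51, 3.92 and 3.07 CPM per kilobase, and Hk3, a form of myeloid cells, at 6.69, 2.92 and 3.95. The lowest Hk1 value was above every value of the other two genes. Hk1 took 73.8%, 82.6% and 81.5% of the family's summed level per kilobase. It exceeded Hk2 9.50-fold (log2 3.36, 3.05 and 3.33, mean 3.25 ± 0.17) and Hk3 6.95-fold (log2 1.95, 3.47 and 2.97, mean 2.80 ± 0.77), each with an exact permutation p = 0.25 (adjusted 0.275).

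Hk2 and Hk3 had no fixed order. Hk2 was below Hk3 in replicates 1 and 3 and above it in replicate 2, with log2 differences of -1.41, -0.36 and 0.42 (mean -0.45 ± 0.92, exact permutation p = 0.75). Without replicate 1 the mean was 0.03, and in CPM without length it was 0.30. Hk3 was highest in replicate 1, as the macrophage markers were (8 of 8 markers highest there, 7 of 8 above 1 CPM). The B cell, erythroid and proliferation lists were highest there too, and the part of these cells in the values of Hk3, Aldoc and Ldhb was not tested. Hk1 lay above 20 CPM per kilobase (edgeR adjusted p = 0.00720), but not without replicate 3 (0.0727). Hk2 and Hk3 lay below (1.17e-04 and 7.43e-04).

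Glucose phosphate isomerase, encoded by Gpi1, turns the product into fructose phosphate. It was read at 34.1, 48.8 and 41.9 CPM per kilobase, above the reference in every library (edgeR adjusted p = 4.24e-04). In the annotation, 12.3% of its exon bases lie opposite exons of Gm26762, and whether the counting used strand is not stated.

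Phosphofructokinase, the main control point of the path, is built from 3 kinds of subunit. Pfkp, the platelet type, was read at 21.9, 47.9 and 29.1 CPM per kilobase. Pfkl, the liver type, was read at 9.92, 11.4 and 12.4, and Pfkm, the muscle type, at 3.50, 4.58 and 3.54. The order Pfkp, Pfkl, Pfkm held in every library without overlap of their ranges. Pfkp took 62.0%, 75.0% and 64.6% of the summed level. Pfkl lay below Pfkp by -1.14, -2.07 and -1.23 on the log2 scale (mean -1.48 ± 0.52) and above Pfkm by 1.50, 1.31 and 1.81 (mean 1.54 ± 0.25, 2.91-fold), and Pfkm lay below Pfkp by a mean of -3.02 ± 0.37. Each of these differences had an exact permutation p = 0.25 (adjusted 0.275).

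Pfkp was the uneven subunit, with replicate 2 at 1.88 times the mean of the others. The NK cell markers were also highest in replicate 2, all 7 of them. The summed monocyte markers were highest there too (936 CPM, against 670 and 349). Of the 7 monocyte markers, 4 were highest in replicate 2 and 3 in replicate 1. Of the 11 T cell markers, 5 were highest in replicate 2, 5 in replicate 3 and 1 in replicate 1. Cd8a was highest in replicate 2 (526 CPM, against 8.67 and 135), and Cd4 was lowest there (167 CPM, against 482 and 470). The part of these cells in the Pfkp value was not tested. Of the exon bases of Pfkp, 18.05% lie opposite exons of Pitrm1. Pfkp passed above 20 CPM per kilobase (edgeR adjusted p = 0.0133), but not without replicate 2 (0.104). Pfkl (0.00293) and Pfkm (2.30e-04) lay below. Pfkfb3, which makes the fructose bisphosphate that activates phosphofructokinase, was read at 10.3, 10.8 and 13.2 CPM per kilobase, also below the reference (0.00314).

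Skeletal muscle markers were read for the muscle forms Pfkm and Eno3. Of 7 such markers, 2 lay above 1 CPM, and their sum was 20.5, 5.42 and 7.75 CPM in replicates 1, 2 and 3. The fast troponin gene Tnnt3 had 55, 46 and 34 counts and the myosin light chain gene Mylpf 50, 18 and 42, while Acta1, skeletal actin, had 1, 0 and 1. The part of muscle RNA in the values of Pfkm and Eno3 was not tested.

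Aldolase, which splits the sugar into triose phosphates, came almost wholly from Aldoa, the form of muscle, red cells and leukocytes. It was read at 79.0, 85.6 and 73.0 CPM per kilobase, and Aldoc, the brain form, at 1.49, 0.251 and 1.16. Aldoa took 98.2% to 99.7% of the summed level. The log2 difference was 5.70, 8.30 and 5.95 (mean 6.65 ± 1.43, 100.3-fold, exact permutation p = 0.25, adjusted 0.275), and 5.82 without replicate 2, in which Aldoc had 6 counts. Aldoa lay above 20 CPM per kilobase (edgeR adjusted p = 5.82e-06) and Aldoc below (0.0119, and 0.144 without replicate 3).

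**Figure D2:**
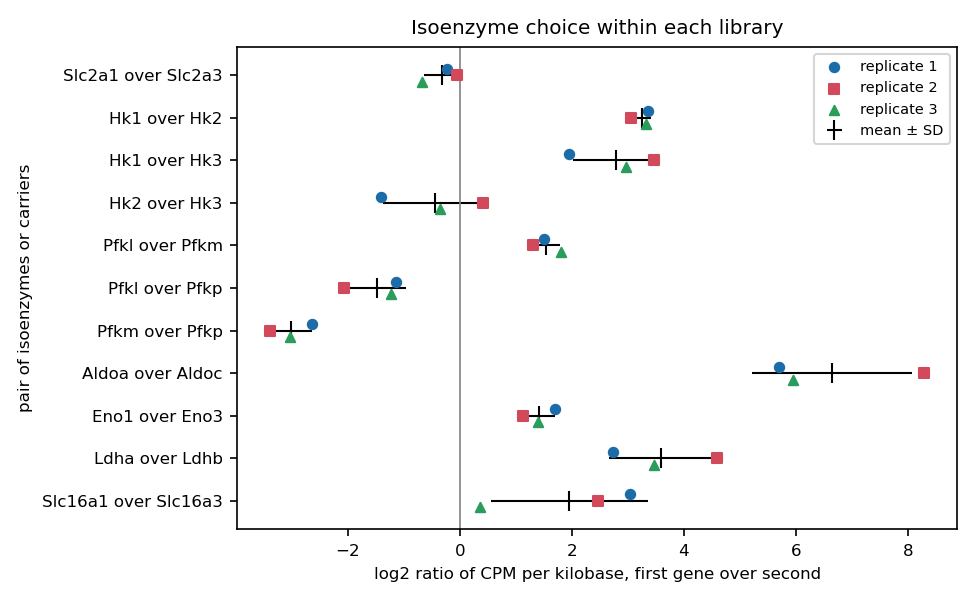
Log2 ratio of CPM per kilobase within each library for 11 pairs of isoenzymes or carriers, first gene over second, with mean and SD over 3 libraries. Points right of 0 mean more of the first gene. Hk2 over Hk3 alone has libraries on both sides of 0.

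The later steps of glycolysis, from triose phosphate to pyruvate, ran from 1.07 to 86.0 CPM per kilobase. Tpi1, triose phosphate isomerase, was read at 9.64, 11.8 and 6.88 CPM per kilobase. Gapdh, the dehydrogenase that starts energy recovery, was read at 4.03, 2.20 and 3.88, from 47, 38 and 63 counts. Pgk1, phosphoglycerate kinase, was read at 2.11, 3.45 and 2.99, from 36, 87 and 71 counts. Pgam1, phosphoglycerate mutase, was read at 0.923, 1.21 and 1.08, from 16, 31 and 26 counts. Eno1, the enolase of most tissues, was read at 19.3, 18.0 and 19.1. Eno3, the muscle enolase, was read at 5.91, 8.26 and 7.25. Pkm, pyruvate kinase, was read at 82.3, 86.7 and 89.0. All 3 libraries gave the same division: Gapdh, Pgk1 and Pgam1 stayed under 5 CPM per kilobase, while Aldoa before them and Pkm after them stayed above 70. Aldoa exceeded Gapdh 19.6-fold, 38.9-fold and 18.8-fold, and Pkm exceeded Pgk1 38.9-fold, 25.2-fold and 29.7-fold in replicates 1, 2 and 3.

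These low genes are ones whose sequence stands elsewhere in the mouse genome. Processed pseudogenes are copies of a messenger RNA written back into the genome, and a read that matches a gene and its copies equally well cannot be given to either. Each gene's longest protein-coding transcript in GENCODE M21 was divided into all windows of 50 bases, and a window was called shared if it stood, letter for letter, in a transcript of another gene. Shared windows made up 82.5% for Gapdh, 72.2% for Eno1, 68.0% for Pgk1 and 41.5% for Pgam1. Gapdh had windows in 215 annotated pseudogenes, Eno1 in 8, Pgk1 in 5 and Pgam1 in 4. Of the other 29 genes, 18 had no shared window. With windows of 100 bases the shares were 78.0%, 59.0%, 67.0% and 39.7%.

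The coding stretches below hold, in capitals, the 50-base window of Gapdh, Pgam1 and Eno1 found in the most annotated pseudogenes within 1 exon. They are shown because a read lying wholly within such a window matches more than 1 gene exactly. A longer read can reach bases outside the window, whose sharing is not marked here. Mdh2, the gene with the highest level, has no shared window, and its first 75-base coding stretch that lies within 1 exon is shown in lower case for contrast. All are from GENCODE M21 on GRCm38, the assembly that mm10 represents, and run 5′ to 3′ on the gene's own strand.
Gapdh: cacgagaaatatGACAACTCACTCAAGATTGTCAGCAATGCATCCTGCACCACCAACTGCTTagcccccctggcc
Pgam1: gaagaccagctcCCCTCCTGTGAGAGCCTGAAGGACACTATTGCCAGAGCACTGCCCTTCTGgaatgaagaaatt
Eno1: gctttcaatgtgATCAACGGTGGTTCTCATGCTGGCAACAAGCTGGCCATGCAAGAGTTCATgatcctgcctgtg
Mdh2: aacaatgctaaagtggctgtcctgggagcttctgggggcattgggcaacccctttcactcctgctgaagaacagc

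The Gapdh stretch, chr6:125162885-125162959 on the minus strand in exon 4 of 7, encodes the part of the enzyme around its catalytic cysteine, and its window stands in 81 pseudogenes. The Pgam1 stretch is at chr19:41916667-41916741, plus strand, exon 3 of 4, with its window in 3 pseudogenes. The Eno1 stretch is at chr4:150245115-150245189, plus strand, exon 7 of 12, with its window in 4. The Mdh2 stretch is at chr5:135783305-135783379, plus strand, exon 2 of 9.

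Level and sharing did not run together in every gene. Eno1 shared more of its windows than Pgk1 and was read 6.59 times as high, and Aldoc had no shared window and the lowest level. Of the Eno1 windows, 70.5% stood in Eno1b, annotated as protein-coding, and 52.8% in pseudogenes. Among the genes tested that had a transcript to divide, the 493 with over 40% of windows shared had a median of 6.40 CPM per kilobase. The 10226 with none had a median of 4.97. Of the copies counted as genes of their own, Eno1b was read at 2.85, 4.85 and 1.75 CPM, Aldoart1, a retrogene of Aldoa, at 3.80, 3.99 and 2.96 CPM, and Gapdh-ps15 had no count in any library. How reads with several matches were counted is not stated in the labels, and the part of shared sequence in the low levels was not tested directly.

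An alternative scaling, chosen after the data were seen, divided the counts by the length outside shared windows, which is apt only if reads with several matches were left out. Under it Gapdh came to log2 -0.06 relative to 20 CPM per kilobase and was no longer separated from it (edgeR adjusted p = 0.902, against log2 -2.57 and 0.00334 with the full length). Eno1 moved from log2 -0.09 (0.589) to 1.76 (1.55e-05), above the reference. Pgk1 moved from log2 -2.81 (0.00121) to -1.17 (0.0297) and Pgam1 from -4.22 (0.00518) to -3.45 (0.0100), both still below. Without replicate 3 and with the full length, Pgam1 was not separated from the reference (0.0921). Tpi1, with 7.51% of windows shared, lay at log2 -1.08 with the full length (0.00536) and at -0.97 without shared windows (0.00844). The levels of Gapdh, Pgk1, Pgam1 and Eno1 are therefore uncertain as levels of the enzymes' messengers, and Gapdh and Pgk1, often used as reference genes, were read below 5 CPM per kilobase in each library.

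**Figure D3:**
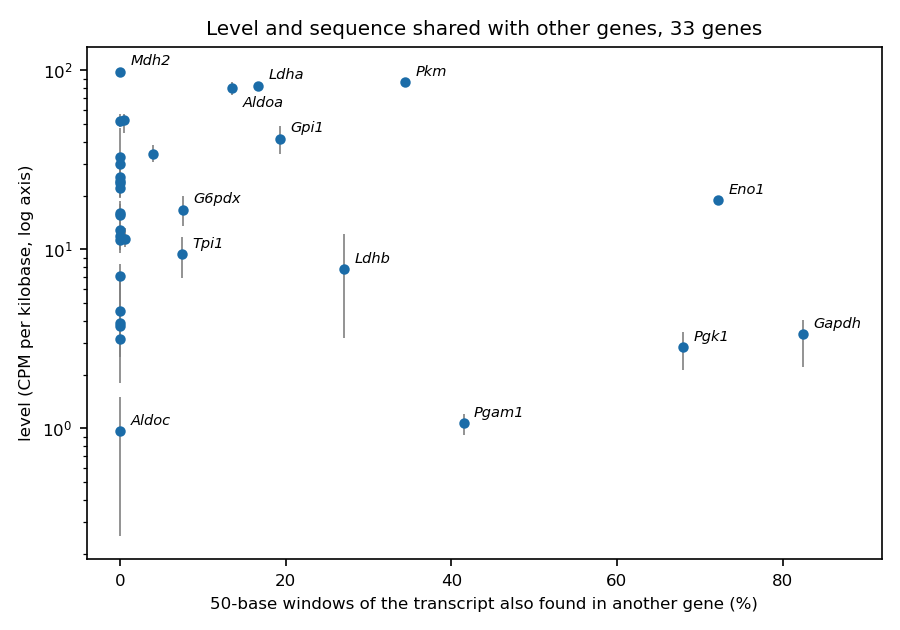
Level of the 33 genes (CPM per kilobase, log axis, mean with the range of 3 libraries) against the share of 50-base windows of the transcript that also stand in another gene (percent). Gapdh, Pgk1 and Pgam1 lie to the right and low, Eno1 to the right at 18.8, and Pkm, Ldha and Aldoa lie high with 34.4%, 16.6% and 13.5% shared.

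Eno1 exceeded Eno3 in each library, by log2 1.70, 1.12 and 1.39 (mean 1.41 ± 0.29, 2.65-fold, exact permutation p = 0.25, adjusted 0.275), and by 3.25 when shared windows were left out of the lengths. Eno3, with no shared window, lay below 20 CPM per kilobase (edgeR adjusted p = 0.00164). Pkm lay above it (4.29e-06). Its splice forms, PKM1 of muscle and brain and PKM2 of growing cells and leukocytes, come from 1 gene and are counted together here. In the annotation, 6.87% of the exon bases of Pkm overlap exons of Gm49759 on the same strand. That gene also holds 5.04% of the 50-base windows of Pkm.

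Lactate dehydrogenase interconverts pyruvate and lactate. Ldha, whose subunit prevails in muscle and in glycolytic cells, was read at 81.4, 78.3 and 86.5 CPM per kilobase, and Ldhb, whose subunit prevails in heart, at 12.2, 3.21 and 7.77. Every Ldha value was several times every Ldhb value. Ldha took 87.0%, 96.1% and 91.8% of the pair. The log2 difference was 2.73, 4.60 and 3.47 (mean 3.60 ± 0.94, 12.1-fold, exact permutation p = 0.25, adjusted 0.275). Ldha was steady, and the spread of the difference came with Ldhb, which was 3.81-fold higher in replicate 1 than in replicate 2. Ldha lay above 20 CPM per kilobase (edgeR adjusted p = 4.58e-06) and Ldhb below (0.0161, and 0.0545 when its 27.0% of shared windows were left out of the length).

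Lactate leaves cells through monocarboxylate carriers. Slc16a1, which encodes MCT1, the carrier that works in both directions in most cells, was read at 14.9, 11.3 and 9.49 CPM per kilobase. Slc16a3, which encodes MCT4, the export carrier of strongly glycolytic cells, was read at 1.80, 2.02 and 7.37. Replicate 3 was the high library for Slc16a3 and the low one for Slc16a1. The log2 difference was 3.03, 2.47 and 0.36 (mean 1.96 ± 1.41, 3.88-fold, exact permutation p = 0.25, adjusted 0.275), and 2.75 without replicate 3. Slc16a3 in replicate 3 was 3.85 times the mean of the others. All 7 neutrophil markers were highest in that library, and their part in this was not tested. Both carriers lay below 20 CPM per kilobase (edgeR adjusted p = 0.00767 for Slc16a1 and 0.00404 for Slc16a3), though Slc16a1 did not without replicate 3 (0.0989). Bsg, which encodes basigin, the partner that brings these carriers to the surface, was read at 68.6, 44.9 and 48.3 CPM per kilobase and lay above (1.24e-04).

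**Figure D4:**
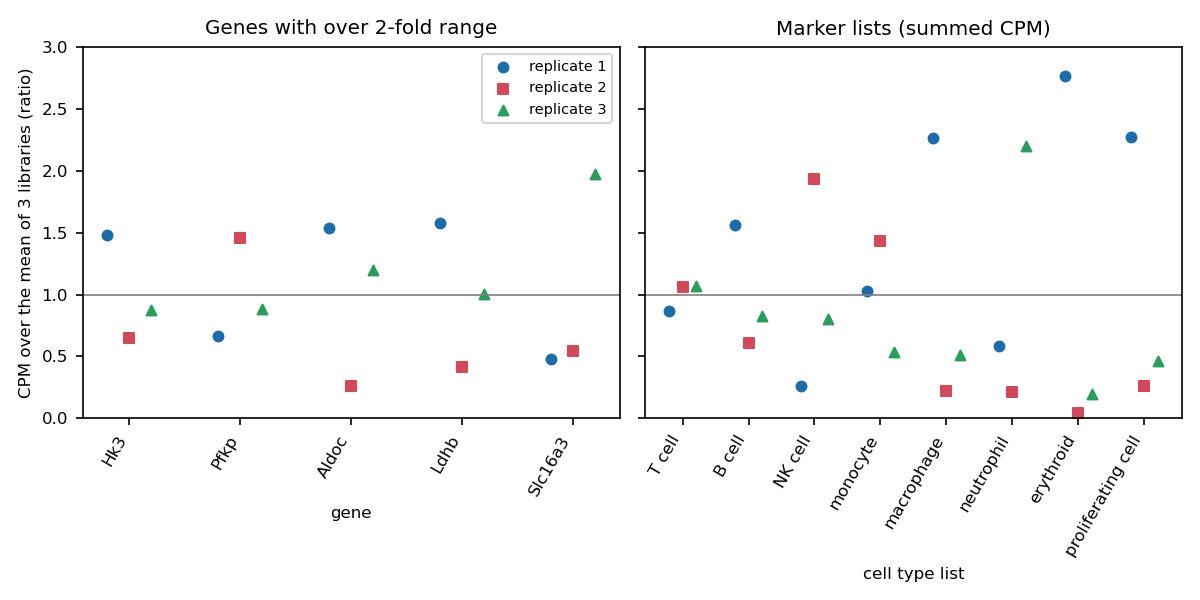
CPM in each library over the mean of the 3 libraries, for the 5 genes with a range over 2-fold (left) and the summed markers of 8 cell type lists (right). Hk3, Aldoc and Ldhb are highest in replicate 1, as are the B cell, macrophage, erythroid and proliferation lists, Pfkp is highest in replicate 2 with the NK cell and monocyte lists, and Slc16a3 in replicate 3 with the neutrophil list.

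The pentose phosphate branch makes NADPH and ribose. G6pdx, its first and limiting enzyme, was read at 19.8, 16.7 and 13.6 CPM per kilobase and was not separated from the reference (edgeR adjusted p = 0.176). Of 6 further enzymes of the branch, 2 lay above it (16.5% of all genes), 0 below (64.3%) and 4 were not separated. Those above were Taldo1, transaldolase, with 101.5, 74.8 and 85.7 CPM per kilobase (4.81e-06), and Tkt, transketolase, with 35.6, 50.7 and 31.97 (9.78e-04). Pgls (20.4 ± 2.58) and Rpia (17.3 ± 0.892) were the lowest of the 6.

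Pyruvate enters the citric acid cycle through pyruvate dehydrogenase. Pdha1, the catalytic alpha subunit that is switched off by phosphorylation, was read at 55.8, 44.5 and 57.2 CPM per kilobase. Pdk1, a kinase that places this phosphate, was read at 50.4, 48.3 and 57.0. The enzyme and its kinase were nearly level, with Pdk1 at 0.904, 1.09 and 0.996 times Pdha1. Both lay above the reference (edgeR adjusted p = 8.72e-05 and 9.93e-05). Of the exon bases of Pdha1, 21.2% lie opposite exons of Map3k15. In CPM without length, Pdk1 had the highest mean of the 33 genes, 267 ± 23.3 CPM.

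Among the 4 kinases, Pdk1 exceeded Pdk3 4.15-fold, 3.81-fold and 4.59-fold and Pdk2 11.5-fold, 6.26-fold and 26.6-fold. Pdk4, the kinase of fasting, had 5, 3 and 3 counts. A list of 10 further genes held those of the complex and its control, and Pcx, which is not part of either. Of the 10, 1 lay above the reference (16.5% of all genes) and 8 below (64.3%), Pcx among them, and 1 was not separated. Dld, the shared dihydrolipoamide dehydrogenase subunit, lay above with 29.8 ± 4.58 CPM per kilobase (edgeR adjusted p = 0.00814), and Pdhb, the beta subunit, was not separated with 23.4 ± 4.60 (0.225). Pcx, which carries pyruvate to oxaloacetate, was low at 2.30, 0.317 and 0.853. The mitochondrial pyruvate carrier subunits parted, Mpc2 with 19.7 ± 5.92 (0.931) and Mpc1 with 3.76 ± 2.03, below the reference (0.0123). Of the 50-base windows, 23.2% were shared for Mpc1, 30.3% for Pdhb and 0% for Mpc2. The part of shared sequence in these levels was not tested.

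The means of the 7 citric acid cycle genes ran from 15.7 to 98.4 CPM per kilobase, with medians of 24.5, 25.8 and 26.3 in replicates 1, 2 and 3. Of the 7, 2 lay above 20 CPM per kilobase, 0 below and 5 were not separated. Over all genes tested, 16.5% lay above and 64.3% below, the shares beside which these counts and the next are read. Among the 11 steps from Hk1 to Ldha, each taken by its most abundant isoenzyme in these same data, 6 lay above and 4 below. The median of their means was 29.8 CPM per kilobase, against 24.2 for the 7 cycle genes, which were taken without such a choice. All 19 glycolysis genes with lactate dehydrogenase had medians of 9.92, 10.75 and 7.77 in replicates 1, 2 and 3, below those of the cycle genes. The 19 hold the less abundant isoenzymes, the regulator Pfkfb3, and Gapdh, Pgk1, Pgam1 and Eno1, whose levels are uncertain. The medians therefore do not rank the 2 pathways.

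Mdh2, which regenerates oxaloacetate, was read at 100.1, 96.3 and 98.9 CPM per kilobase, the narrowest range of all 33 genes (1.04-fold). Cs, citrate synthase, the entry step, was read at 30.9, 38.1 and 32.7. Both lay above the reference (edgeR adjusted p = 1.71e-06 for Mdh2 and 0.00154 for Cs). Ogdh, of the oxoglutarate dehydrogenase complex, was read at 19.7, 29.7 and 23.1 (0.144, and 0.0471 without replicate 1). Idh2, the mitochondrial NADP-dependent isocitrate dehydrogenase, was read at 27.1, 21.4 and 27.9 (0.0581, and 0.0278 without replicate 2). Idh3a, a subunit of the NAD-dependent form, was read at 19.3, 25.8 and 20.8 (0.425). Sucla2, the subunit of the ATP-forming succinyl-CoA ligase, was read at 24.5, 19.8 and 26.3 (0.172). Fh1, fumarase, was lowest at 18.0, 15.1 and 13.8 (0.0893). When mitochondrial genes and Malat1 were left out of the totals, which moves the median gene by 0.25 log2 units, Idh2 (0.00764), Idh3a (0.0434), Ogdh (0.0186) and Sucla2 (0.0186) also passed above the reference.

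**Figure D5:**
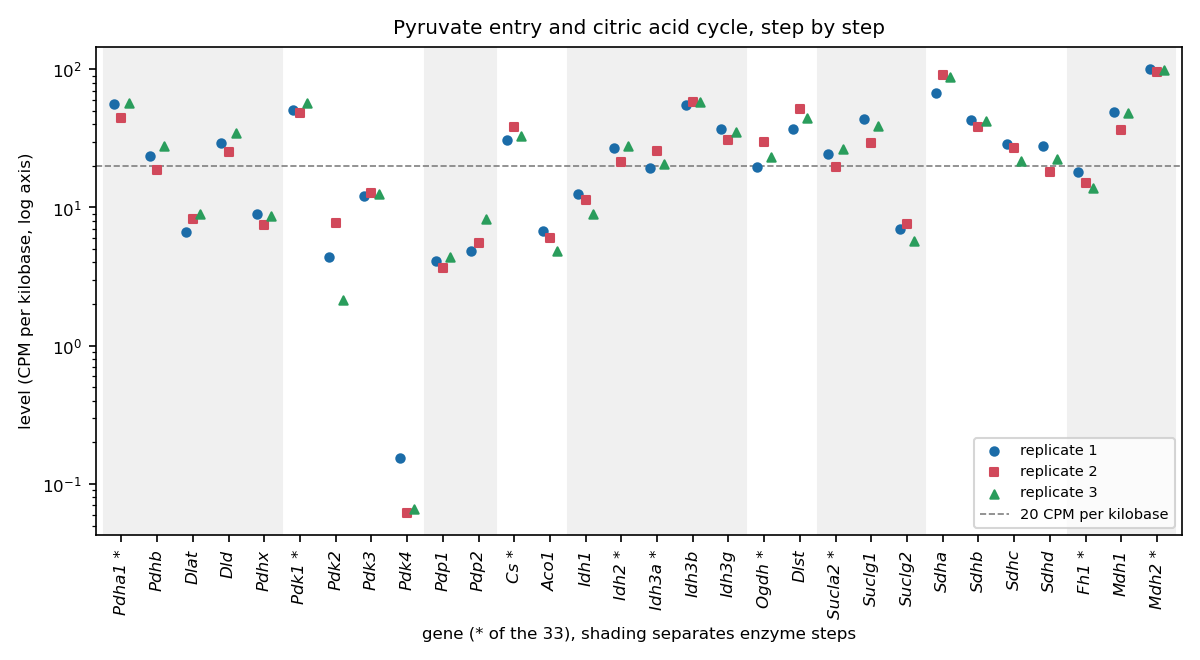
Levels (CPM per kilobase, log axis) in replicates 1, 2 and 3 of genes of pyruvate entry and of citric acid cycle steps. The cytosolic forms Aco1, Idh1 and Mdh1 stand beside them, and the genes of the set are marked by a star. The dashed line is 20 CPM per kilobase. Pdk1 stands level with Pdha1 and above the other kinases, and the cytosolic Idh1 stands below the mitochondrial Idh2.

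A list of 12 further genes held cycle genes and the cytosolic forms Aco1, Idh1 and Mdh1. Of the 12, 7 lay above 20 CPM per kilobase (16.5% of all genes), 3 below (64.3%) and 2 were not separated. The highest were Sdha, the flavoprotein of succinate dehydrogenase, with 67.2, 91.5 and 88.1 (edgeR adjusted p = 9.04e-06), and Idh3b, another NAD-dependent isocitrate dehydrogenase subunit, with 54.7, 57.9 and 58.2 (2.89e-05). Those below were the cytosolic Aco1 (5.87 ± 0.968) and Idh1, and Suclg2 (6.78 ± 0.988), the subunit of the GTP-forming ligase. Suclg2 had 21.8% of its 50-base windows shared, and the part of this in its level was not tested. Mdh2 exceeded its cytosolic counterpart Mdh1 2.05-fold, 2.63-fold and 2.05-fold, and Idh2 exceeded Idh1 2.18-fold, 1.90-fold and 3.12-fold in replicates 1, 2 and 3.

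Counts of further genes are read beside the 16.5% of all genes above the reference and the 64.3% below it. Of 6 further glucose transporters, 6 lay below, the highest being Slc2a9, a urate and sugar transporter, with 3.82 ± 0.632 CPM per kilobase and Slc2a6 with 3.12 ± 0.519. Slc2a4, the insulin-responsive GLUT4, had 41, 0 and 4 counts and Slc2a5, the fructose transporter, 10, 0 and 2. Of 11 further glycolytic isoenzymes, 9 had enough counts to test, of which 1 lay above and 7 below, near the share over all genes. Pgk2 and Gapdhs, forms of sperm cells, had at most 3 counts in any library. Ldhd, which acts on D-lactate, was read at 1.43 ± 0.186. The 4 further genes that set the fructose bisphosphate signal, Pfkfb1, Pfkfb2, Pfkfb4 and Tigar, all lay below, from 2.39 to 5.08. Pfkfb2 had 25.1% of its 50-base windows shared. Slc16a7, another monocarboxylate carrier, also lay below at 1.41 ± 0.786.

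The isoenzyme above the reference was Bpgm, which makes the bisphosphoglycerate that loosens the hold of haemoglobin on oxygen in red cells. It was read at 140.9, 10.9 and 17.9 CPM per kilobase, high in replicate 1 alone, where the 9 erythroid markers were also highest (9 of 9). Its mean passed the test (edgeR adjusted p = 0.026), and replicates 2 and 3 were each under 20 CPM per kilobase. The part of red cell RNA in this and in the levels of the 33 genes was not tested.

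Of 7 regulators, 6 had enough counts to test, with 2 above the reference and 2 below. Txnip, which holds back glucose uptake and is induced by glucose itself, was read at 198, 213 and 254 CPM per kilobase (edgeR adjusted p = 2.33e-07), above each of the 33 genes. Hif1a, the oxygen-regulated activator of glycolytic genes, was read at 46.7, 34.9 and 52.9 (3.68e-04). Egln3, an oxygen sensor that is itself a target of this factor, was read at 1.85 ± 0.653 (8.59e-04), below, and Mycn had 0, 0 and 6 counts.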

How the data were processed

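RNA of 3 libraries was sequenced from 8 ng of total RNA each with a stranded total RNA kit, per the labels' protocols. The authors deposited raw read counts per gene as whole numbers, with Entrez identifiers and gene lengths. Per the submitters' processing notes, the tools were bcl2fastq, STAR 2.75, featureCounts and DESeq2 1.18.1 with mm10, without their roles. Annotation, strand setting and the handling of reads matching several places are not given in the sources used here. Symbols written as dates (25) were restored through RefSeq (GRCm38.p6), which matched 17795 genes.

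CPM used TMM factors (1.04, 1.01 and 0.950). edgeR 4.0.16 fitted an intercept with the reference level in the offsets. Its quasi-likelihood F statistic was computed against the model without coefficient, two-sided. DESeq2 1.42.0 and limma 3.58.1 were alternatives. In simulated counts against 20 CPM per kilobase (14483 genes fitted), it found 88.0% of genes placed 2-fold above, 96.0% of those 2-fold below, and called 4.5% of those at the reference. Against 1 CPM (14496 genes fitted) it found 20.0% at 2-fold above, 74.0% at 4-fold above and 0.0% below. That test therefore shows presence only, and a gene not separated from 1 CPM may still lie above it. Isoenzyme ratios (0.5 count added) were tested by exact sign-flip permutation. Shared windows were searched in GENCODE M21 transcripts, which cover 17010 genes, and unannotated copies were not searched.

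The genes, lists and references were chosen with earlier results of these data known. All 33 genes are named, with the 2 highest and 2 lowest of each further pathway list (60 genes measured, 1 more gene and 1 sequence not reported here). Of 96 markers in 13 lists, 94 were measured. Further lists gave sums, in replicates 1, 2 and 3, of 426, 167 and 226 CPM (B cell, 8 of 8 above 1 CPM), 670, 936 and 349 (monocyte, 7 of 7), 76.9, 76.5 and 42.4 (conventional dendritic cell, 5 of 7), 2.75, 0.143 and 1.44 (adipocyte, 0 of 4), 15.6, 2.07 and 4.33 (stromal, 0 of 6), and 6.76, 0.571 and 2.73 (melanoma, 0 of 5).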

Additional observations from a re-analysis of the deposited data

How the results depend on the processing

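Across 12 alternatives, 9 to 14 of the 33 genes lay above 20 CPM per kilobase and 11 to 15 below. Leaving out 1 replicate gave 9 to 11 above and 11 to 15 below. Above 1 CPM the count was 31 or 32 under all 11 alternatives run. Of all genes tested, 9963 lay below 20 CPM per kilobase, but 6439 with edgeR's own expression filter, which fits 11056 genes. Without 1 replicate this number ran from 5422 (without replicate 3, 14979 genes fitted) to 10078 (without replicate 2, 15255 genes fitted). For the other reversed values the cause was not tested: Hk2 over Hk3 came to 0.30 in CPM without length and ranged from -0.89 to 0.028 without 1 replicate, Eno1 against 20 CPM per kilobase to 0.16 without mitochondrial genes and Malat1 in the totals and to 1.76 without shared windows, and Idh3a to -0.0065 without replicate 2, in a range of -0.0065 to 0.21 without 1 replicate. The other 86 of 88 isoenzyme values kept their direction. No paired analysis was possible because the labels give 1 group. Depth limits the genes under 100 counts in every library, Aldoc, Gapdh, Pgk1 and Pgam1, most. Also under 100 counts were Slc16a3 in replicates 1 and 2 (44 and 73), Ldhb in replicate 2 (58) and Eno3 in replicate 1 (85). The floors cover counting error only.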
